A study of Drosophila melanogaster with 54 samples.

Results

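The mRNAs of translation factors and aminoacyl-tRNA synthetases were followed in Drosophila melanogaster from the mature oocyte to the activated egg. Members were all gene symbols in the input tables that begin with eIF, eRF or Aats-, or with Ef and a digit, apart from the exon junction helicase eIF4AIII. This gave 54 of 14250 genes, namely 27 initiation factors, 5 elongation factors, 1 release factor and 21 synthetases. Of these, 46 were listed in all 6 polysome gradients and 46 had a footprint transcript. The cap-binding paralogues eIF4E-3, eIF4E-4, eIF4E-5, eIF4E-6 and eIF4E-7 and the second elongation factor 1 alpha gene, Ef1alpha100E, were in no gradient, and none of these reached 1 RPKM (reads normalised to transcript length and library size) in any input. The mitochondrial synthetase gene Aats-pro was missing from both puromycin gradients and eIF4G2 from both egg gradients, so neither was tested there.

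Stage 14 oocytes were hand picked from ovaries of 4-day-old OregonR females, and activated unfertilised eggs were collected over 2 h from OregonR virgins housed with spermless twine (HB5) males. Lysates were spread on sucrose gradients, 2 for oocytes, 2 for eggs and 1 of each stage after 2 mM puromycin, and each gradient was pooled into 6 fractions. These were messenger particles without ribosomal subunits (free RNPs), the 40S peak, the joined 60S and 80S peaks, and low (2 to 4 ribosomes), medium (5 to 9) and heavy (10 or more) polysomes. An unfractionated input accompanied each gradient. A second set of 12 libraries held RNA and ribosome-protected fragments of oocytes, OregonR eggs and eggs of png1058/png1058 mothers, which lack normal activity of the PNG kinase that acts at egg activation, 1 library each with and without cycloheximide. The labels do not say whether replicates came from separate collections, so each p-value reflects no more than how these particular libraries vary. Puromycin lysates were made and run in other buffers, so the drug cannot be told apart from its buffer, and poly(A) selection means that tail length and mRNA amount cannot be told apart.

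Initiation factors load the small ribosomal subunit and the initiator tRNA onto a capped mRNA, elongation factors bring charged tRNAs and move the ribosome along, and release factors end the chain at a stop codon. Synthetases charge each tRNA with its amino acid, in the cytosol or in mitochondria. Mature oocytes of flies make almost no new mRNA, so at activation protein output depends on which stored mRNAs are taken up by ribosomes.

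The library labelled egg puromycin input went against its label: the eggshell mRNA Cp15 stood at 26831 RPKM in it, as against 25159 and 19166 in the oocyte inputs and 0 and 0.12 in the egg inputs. Long member mRNAs were also low there, with 1.5 RPKM for Aats-glupro. It entered a single alternative fit, given at the end. Follicle cell and yolk mRNAs, 20 of a list of 23 in the input tables, summed to 28764 and 23601 RPKM in the oocyte inputs with every gene at 1 RPKM or more, and to 0.50 and 0.85 RPKM in the egg inputs, where 17 and 12 of the 20 were listed at 0. All 10 germline markers were present in every input, at 1719.9 to 2651 RPKM in sum outside that library. Oocyte inputs thus held mRNAs of that list and egg inputs hardly any, and their part in the differences below was not tested. The png mRNA itself was at 101 and 102 RPKM in OregonR eggs and at 92.1 and 96.9 RPKM in png eggs, and the labels do not say whether the allele should alter it. Files held RPKM values without counts, so depth is unknown.

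How much mRNA was stored for each factor was read from the inputs in RPKM, a scale per length. Elongation factors were the most abundant class, with a median of 1601 RPKM over the 4 genes above 1 RPKM, against 160 RPKM for 22 initiation factors, 169 RPKM for eRF1 and 50.3 RPKM for 21 synthetases. Ef1alpha48D, whose protein delivers charged tRNAs to the ribosome, was at 5623 and 7644 RPKM before activation and 6315 and 7247 RPKM after it, rank 3 of all genes. Ef2b, which moves the ribosome by 1 codon, ranked 66, and eIF-5A, which helps peptide bonds form and today is named as an elongation factor, ranked 75. Cytosolic synthetases had a median of 78.0 RPKM over 15 genes and mitochondrial ones 30.9 RPKM over 6 genes, with Aats-pro lowest at 18.0 RPKM and Aats-his, for histidine, highest of all synthetases at 205 RPKM. The cytosolic and mitochondrial split, and the split of initiation factors into complexes used below, were made after values had been seen.

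No member passed the test between egg and oocyte inputs. By limma on log2(RPKM + 1), 0 of 48 members above the minimum were higher and 0 lower, where 0.423% and 3.05% of all 6622 genes tested were. An unadjusted limma p of at most 0.05 was found for 1 member and for 939 of all 6622 genes. Log2 differences ran from -0.55 for the alanine synthetase Aats-ala to 0.67 for the exchange factor Ef1beta. The cap-binding protein mRNA eIF-4E had 458 and 586 RPKM before activation against 300 and 441 RPKM after it, with no overlap (log2 -0.51 ± 0.30 SE, limma adjusted p = 0.464). Leaving out egg replicate 2, so that 1 egg input remained, moved the median of all genes from -0.09 to -0.19. Calls then grew among members and among all genes alike. In bulk samples fewer cells of a type and less RNA per cell cannot be told apart. The RNA libraries of the footprint series likewise gave 0 of 46 members higher or lower in eggs by limma (background 0.0685% and 0.325% of 5840 transcripts). There 3 members had an unadjusted limma p of at most 0.05, as did 641 of all 5840 transcripts.

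In the gradients, most synthetase mRNAs left medium and heavy polysomes at activation. The polysomal share is the percentage of an mRNA found in the medium plus heavy fractions, tested with limma as log2 odds against the other 4 fractions. Of 20 synthetases 17 fell in eggs and 0 rose, where 51.0% of all 5088 genes fell and 18.2% rose, with a median change of -1.58 on the log2 odds scale against -0.60 over all genes. Of 21 initiation factors 12 fell and 0 rose, with a median of -0.45, so their share of falls was near that of all genes. Of 4 elongation factors 3 fell, and eRF1 was not called. Besides the authors' scaling, 2 others were tried, all fractions brought to equal totals and gradients centred on their median. The fall of the synthetases stood under both, at 16 and 17 of 20 lower with 0 higher, 0.88 and 0.98 below the median of all genes. For initiation factors the median turned positive under both (0.26 and 0.06, with 5 and 6 lower and 2 higher in each), and for elongation factors with all fractions brought to equal totals 1 was higher and 0 lower. Those scalings moved the median of all genes from -0.60 to -0.19 and -0.09. Under them 1919 and 1883 of all 5088 genes were lower and 1431 and 1594 higher.

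**Figure D1:**
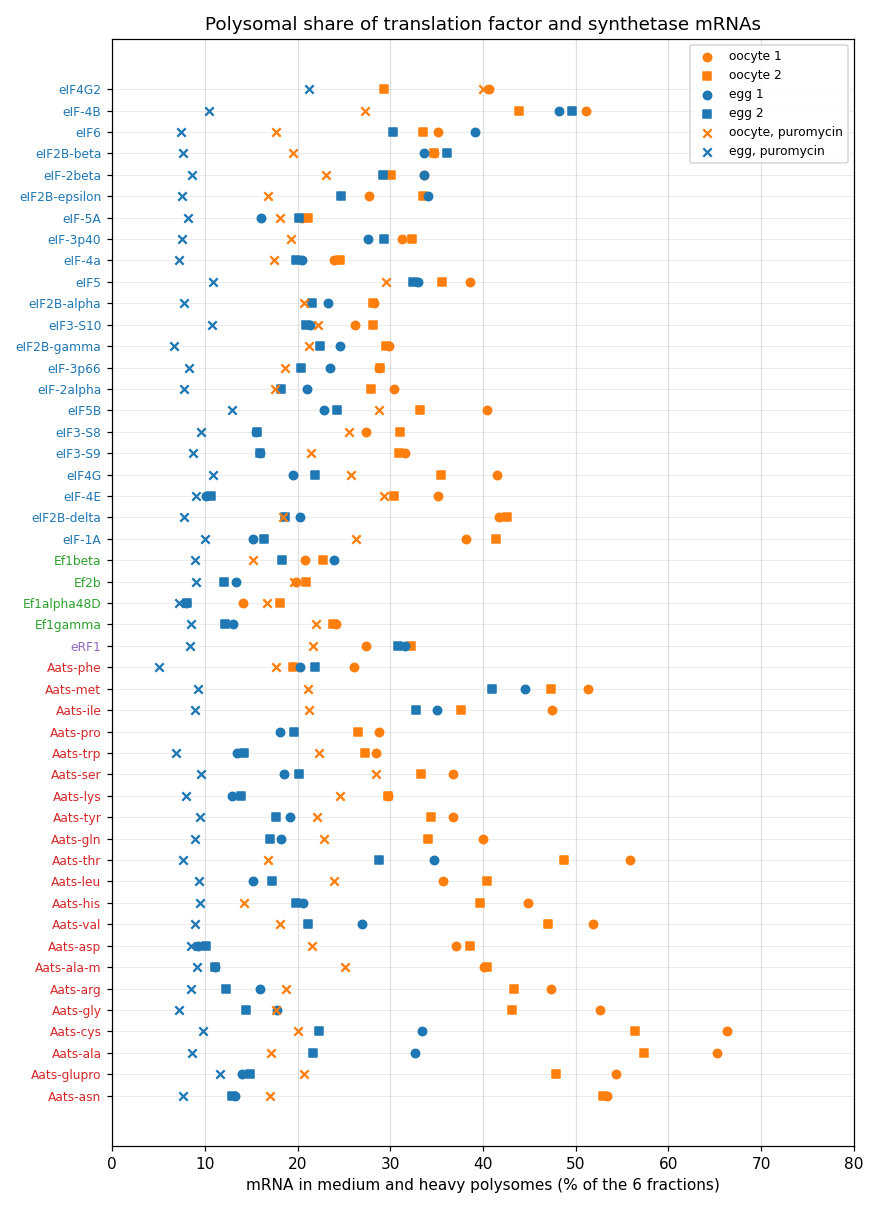
Polysomal share of each member (x axis, % of the 6 fractions), 1 point per gradient: oocytes orange, eggs blue, circles and squares for replicates 1 and 2, crosses for puromycin. Names are coloured by class (blue initiation, green elongation, purple release, red synthetase) and sorted within it by the difference between eggs and oocytes, with eIF4G2, which lacks egg values, first; Aats-asn is at 53.4% and 53.0% in oocytes and 13.2% and 13.0% in eggs.

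The asparagine synthetase mRNA Aats-asn fell furthest. Oocyte gradients had 53.4% and 53.0% of it in medium plus heavy fractions, and egg gradients 13.2% and 13.0% (log2 odds -2.90 ± 0.15 SE, limma adjusted p = 0.000115). The replicates of a stage lay within 1 percentage point, far from the other stage. In oocytes the heavy fraction was its fullest, with 35.6% and 34.2%, whereas in eggs the RNP fraction held 37.5% in replicate 1 and the 60S with 80S fraction 35.9% in replicate 2. The mRNA of Aats-glupro, a single protein that charges both glutamate and proline tRNAs, had 54.3% and 47.9% in oocytes and 14.0% and 14.8% in eggs (log2 odds -2.61 ± 0.19 SE, limma adjusted p = 0.000124). In eggs its free RNP share was 3.1% and 1.5%, against 0.2% in each oocyte gradient, and most of it lay at 40S (35.3% and 19.3%) and 60S with 80S (36.2% and 49.0%). The aspartate synthetase mRNA Aats-asp had 37.1% and 38.6% in oocytes and 9.3% and 10.1% in eggs (log2 odds -2.49 ± 0.16 SE).

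Other synthetases began higher still. Aats-ala had a polysomal share of 65.3% and 57.4% in oocytes and 32.6% and 21.6% in eggs, and Aats-cys, for cysteine, had 66.3% and 56.4% in oocytes and 33.4% and 22.3% in eggs. Both fell (log2 odds -2.11 ± 0.31 and -2.04 ± 0.32 SE, limma adjusted p = 0.00114 and 0.0016), although eggs kept a share near that of a typical gene, whose median was 26.8% and 27.6% in the egg gradients. The arginine synthetase mRNA Aats-arg (-2.30) and the mitochondrial alanine synthetase mRNA Aats-ala-m (-2.38) fell to a similar extent. The 3 synthetases not called were Aats-ile, for isoleucine (47.5% and 37.6% in oocytes, 35.0% and 32.8% in eggs, adjusted p by limma 0.0814), and the mitochondrial enzymes for methionine, Aats-met (51.4% and 47.4%, 44.6% and 41.0%, 0.108), and phenylalanine, Aats-phe (26.0% and 19.5%, 20.2% and 21.9%, 0.625). The first 2 had lower eggs than oocytes in every pair of gradients, whereas Aats-phe overlapped. With low polysomes counted as polysomal, Aats-met was called lower (-1.22). Of 15 cytosolic synthetases 14 fell and of 5 mitochondrial ones 3, where 51.0% of all genes fell. The mitochondrial count was near that share.

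Initiation factors are given by complex, and differences between complexes were not tested. In the cap-binding group, eIF-4E had 35.2% and 30.4% in oocytes and 10.1% and 10.6% in eggs (log2 odds -2.07 ± 0.18 SE, limma adjusted p = 0.000166). The scaffold eIF4G, which joins eIF-4E to the helicase, had 41.5% and 35.5% in oocytes and 19.5% and 21.9% in eggs (-1.25 ± 0.19 SE). The helicase eIF-4a (24.0% and 24.6%, then 20.5% and 19.8%) and its helper eIF-4B (51.1% and 43.9%, then 48.2% and 49.6%) did not pass, and eIF-4B kept the highest egg share of any member. With either other scaling eIF-4B was called higher (0.69 and 0.59). Those values put cap-binding and scaffold mRNAs well below oocytes in both eggs and the helicase pair close to or within the oocyte range.

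In the eIF2 group, which carries the initiator tRNA, eIF-2alpha fell (30.4% and 27.9% in oocytes, 21.0% and 18.2% in eggs, log2 odds -0.76 ± 0.18 SE), while eIF-2beta had 33.6% and 30.1% in oocytes and 33.6% and 29.3% in eggs. The eIF-2alpha call was lost without oocyte replicate 1 (-0.67) and under both other scalings (-0.01 and -0.25). Of the 5 subunits of eIF2B, which reloads eIF2 with GTP, 3 fell, led by eIF2B-delta (41.8% and 42.6%, then 20.3% and 18.6%, log2 odds -1.58 ± 0.16 SE). The beta subunit overlapped at 34.7% and 34.8% in oocytes against 33.6% and 36.1% in eggs. It was called higher with centred gradients (0.52) and lower with low polysomes included (-0.79). Of 5 member subunits of eIF3, the scaffold on the small subunit, 4 fell and eIF-3p40 (-0.23) was not called, where 51.0% of all genes fell. Among eIF3 subunits listed under other symbols, and so not members, Adam fell (-0.70). Int6 (-0.25), Trip1 (-0.14) and Tango7 (-0.01) were not called. With all fractions brought to equal totals 1 of 5 in eIF2B and 0 of 5 in eIF3 were lower, and with centred gradients 1 and 2 were. When the replicate number entered the fit of the untreated gradients as a block, 1 of 5 and 2 of 5 were lower. The eIF2B-delta call stood under both (-1.07 in each).

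The scanning factor eIF-1A had 38.1% and 41.4% in oocytes and 15.2% and 16.4% in eggs (log2 odds -1.81 ± 0.16 SE, limma adjusted p = 0.000194). The subunit-joining factor eIF5B fell (-0.91 ± 0.20 SE, adjusted p by limma 0.00675) but was not called with centred gradients (-0.40) or in heavy polysomes alone (-0.63). Not called were eIF5, which triggers GTP hydrolysis on eIF2 (-0.28), eIF-5A (-0.25) and eIF6, which keeps the large subunit from joining early (0.02). The value of eIF6 depended on the fractions counted: with low polysomes included it was called lower (-1.10), and with all fractions brought to equal totals it was called higher (0.65).

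Among elongation factors, Ef1alpha48D had little polysomal mRNA at either stage, 14.1% and 18.1% in oocytes and 7.9% and 8.1% in eggs (log2 odds -1.13 ± 0.21 SE, limma adjusted p = 0.00341). Its RNP fraction held 27.8% and 16.2% in oocytes and 50.1% and 28.0% in eggs. Ef1gamma, a subunit of the exchange complex, fell by 1.13 and Ef2b by 0.81, whereas the exchange subunit Ef1beta overlapped between stages (20.8% and 22.8%, then 23.9% and 18.3%). A further exchange subunit, eEF1delta, is not a member by its symbol and was called higher (0.61). With all fractions brought to equal totals the calls of Ef1alpha48D (-0.15), Ef1gamma (-0.41) and Ef2b (-0.04) were lost and Ef1beta was called higher (0.72). Ef2b was also not called without oocyte replicate 2 (-0.76) or with centred gradients (-0.30). The stop codon factor eRF1 had 27.4% and 32.2% in oocytes and 31.6% and 30.9% in eggs, with overlapping values (log2 odds 0.10 ± 0.18 SE, limma adjusted p = 0.624), and it was called higher under both other scalings (0.87 and 0.61).

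**Figure D2:**
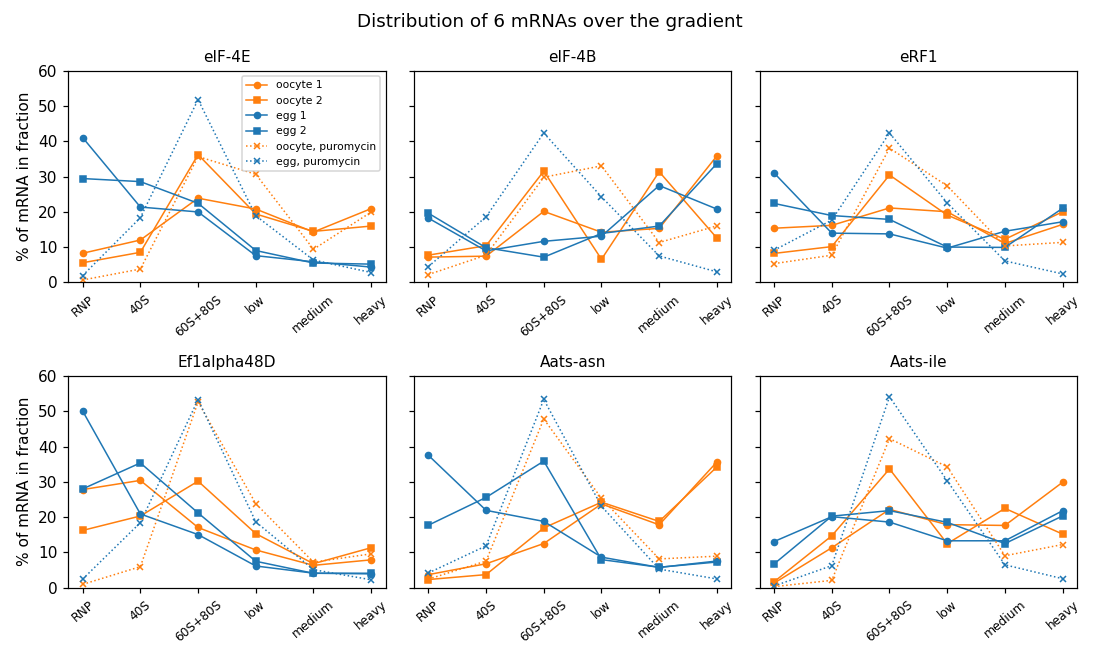
Part of each mRNA (y axis, % of the gene's sum over the gradient) in the 6 fractions from free RNPs to heavy polysomes (x axis), for eIF-4E, eIF-4B, eRF1, Ef1alpha48D, Aats-asn and Aats-ile. Solid lines are the replicates of oocytes (orange) and eggs (blue) and dotted lines the puromycin gradients; Aats-asn peaks in heavy polysomes in oocytes (35.6% and 34.2%) and not in eggs (7.5% and 7.2%).

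Most members also gained free RNP mRNA, as did most genes. The RNP share rose by limma for 43 of 46 members and fell for 0, where it rose for 79.3% of all genes and fell for 0.55%; it is read from the same gradients as the polysomal share. All 20 synthetases rose, with a median of 2.93 log2 odds against 2.12 over all genes, and 19 of 21 initiation factors, 3 of 4 elongation factors and eRF1 did. The members not called were eIF-5A (0.04), Ef1beta (0.22) and eIF-4a (0.61). With gradients centred on their median 7 members rose, all of them synthetases, and 4 fell. Of all 5088 genes 522 rose and 697 fell with that centring. As deposited, the medians of initiation factors (2.01) and elongation factors (1.27) and the value of eRF1 (1.49) lay below the median of all genes. Leaving out oocyte replicate 2, so that 1 oocyte gradient remained, moved the median of all genes to 1.93. Rises then became fewer among members and among all genes alike.

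Whether the sedimentation depended on elongating ribosomes was examined with puromycin, which releases them, in a lone gradient per stage whose spread was borrowed from the replicates. Oocyte gradients enter both the egg and the puromycin comparisons, so their values are set side by side only. In oocytes 16 of 20 synthetases and 14 of 21 initiation factors had a lower polysomal share after puromycin by limma, 0 of 4 elongation factors did and eRF1 did not, with 0 members higher, where 49.5% of all genes were lower and 0.55% higher. Aats-ala went from 65.3% and 57.4% to 17.1% (log2 odds -2.94 ± 0.38 SE), Aats-cys from 66.3% and 56.4% to 20.0% (-2.65 ± 0.39 SE) and Aats-asn from 53.4% and 53.0% to 17.0% (-2.46 ± 0.18 SE, limma adjusted p = 0.000991). The treated gradient lay below both untreated ones for each. Ef1alpha48D stood at 16.7% after puromycin, between the untreated 14.1% and 18.1%, and eIF-4E at 29.3% against 35.2% and 30.4% (adjusted p by limma 0.416).

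In eggs 41 of 46 members were lower after puromycin and 0 higher, where 80.1% of all genes were lower and 1.0% higher, namely 17 of 20 synthetases, 20 of 21 initiation factors, 3 of 4 elongation factors and eRF1. The polysomal share of these 46 members after puromycin ran from 5.0% to 12.9%. The largest falls were those of eIF-4B, from 48.2% and 49.6% to 10.4% (log2 odds -3.04 ± 0.26 SE, limma adjusted p = 7.15e-05), Aats-met, from 44.6% and 41.0% to 9.2% (-2.84 ± 0.23 SE), and eIF6, from 39.2% and 30.3% to 7.4% (-2.71 ± 0.27 SE). Aats-asp, Aats-glupro, Aats-ala-m, eIF-4E and Ef1alpha48D were not called, and their untreated egg shares were already 7.9% to 14.8%. The puromycin counts rest on the authors' scaling: with all fractions brought to equal totals the median of all genes moved from -0.70 to 0.45 in oocytes and from -1.83 to 0.04 in eggs, and 9 members were higher and 5 lower in oocytes and 19 higher and 5 lower in eggs. Of all 5088 genes 1806 were then higher and 717 lower in oocytes, and 1596 higher and 1592 lower in eggs. The effect of puromycin in eggs minus that in oocytes was tested with limma as well: it was higher for 4 members and lower for 13, where 5.84% of all genes were higher and 49.9% lower. All 4 were synthetases, led by Aats-glupro (1.64 log2 odds) and Aats-asn (1.61). Relative to the median of all genes synthetases lay 0.94 lower in oocytes and 0.70 higher in eggs as deposited, and 0.63 lower and 0.60 higher with that scaling.

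Ribosome footprints gave a second view from other libraries. Translational efficiency (TE) is log2(footprint RPKM + 1) minus log2(RNA RPKM + 1), tested with limma over the 12 libraries, where the states with and without cycloheximide serve as the 2 observations of a stage. In eggs against oocytes 12 of 19 synthetases were lower and 1 higher, with a median log2 change of -0.91 against 0.50 over all transcripts, of which 24.7% were lower and 46.0% higher. Initiation factors were split, 8 higher and 5 lower of 22, with a median of 0.26. Of 4 elongation factors 1 was higher and 0 lower, and eRF1 was higher. With libraries scaled to the same median, which moved the median of all transcripts to -0.25, 18 of 19 synthetases were lower and 0 higher, but 10 initiation factors were lower and 1 higher, so their direction depended on the scaling. Over all 5840 transcripts that scaling gave 1909 higher and 2518 lower. The fit removes a mean difference between cycloheximide states for each assay, and no stage was repeated within a state. The limma p-values of this series thus reflect how that difference varies among stages. The 2 genes of the follicle cell and yolk list in this series took 3.44% and 10.2% of the footprint RPKM total in oocytes (without and with cycloheximide) and 0.0036% and 0.0058% in OregonR eggs, and their part in the TE differences was not tested.

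The falls were led by synthetases again. Aats-asn had 250 and 179 RPKM of footprints in oocytes (without and with cycloheximide) and 21.5 and 28.2 RPKM in eggs, with RNA at 104 and 103 RPKM and then 97.3 and 99.8 RPKM (TE change -2.98 ± 0.27 SE, limma adjusted p = 1.43e-05). Its footprints thus separated the stages while its RNA stayed close. Among synthetases the TE of Aats-asp (-2.67 ± 0.31 SE), Aats-arg (-2.37 ± 0.21 SE), Aats-glupro (-2.27 ± 0.26 SE) and Aats-ala-m (-2.10 ± 0.27 SE) fell next. The exception was Aats-ile, with 94.2 and 64.2 RPKM of footprints in oocytes and 123 and 119 RPKM in eggs, which rose (0.78 ± 0.23 SE, limma adjusted p = 0.0127). Its call was lost with libraries scaled to the same median (-0.0035) and without either egg pair (0.93 and 0.64).

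Among initiation factors eIF-4E fell, from 679 and 563 RPKM of footprints in oocytes to 184 and 182 RPKM in eggs, with RNA at 557 and 554 RPKM and then 714 and 709 RPKM (TE change -2.11 ± 0.17 SE, limma adjusted p = 7.94e-06). In contrast eIF5 went from 124 and 182 RPKM of footprints to 335 and 389 RPKM (1.34 ± 0.26 SE, limma adjusted p = 0.00134), and eRF1 from 93.3 and 82.2 RPKM to 220 and 197 RPKM (1.18 ± 0.19 SE, limma adjusted p = 0.000381). No footprint values of the 2 stages overlapped for these 3 genes. The RNA of eIF-4E was higher in eggs here but lower in the inputs, with no call in either. The TE of the catalytic exchange subunit eIF2B-epsilon (1.64 ± 0.27 SE), Ef1beta (1.302 ± 0.19 SE) and eIF-5A (1.26 ± 0.17 SE) also rose. With libraries scaled to the same median the calls of eIF5 (0.55), Ef1beta (0.51), eIF-5A (0.47) and eRF1 (0.39) were lost.

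Set side by side, gradients and footprints put members in a like order. Over 45 members measured in both, the change in polysomal share and in TE had a Pearson r of 0.82 and a Spearman rho of 0.76, as against 0.65 and 0.64 over all 4884 genes in both, given as a description across genes. Of these members 17 were lower by both measures, 12 of them synthetases, where 21.6% of the 4884 genes were. Another 7 rose in TE without a polysomal call, near the 17.2% of all genes that did. The 4 that were lower in polysomal share and higher in TE were all initiation factors: eIF4G, eIF5B, eIF3-S8 and eIF-3p66, named after their values were seen. That count of 4 is below the 14.2% found over all genes. With libraries scaled to the same median none of the 4 was higher in TE by limma (eIF4G 0.01, eIF5B 0.14, eIF3-S8 -0.03 and eIF-3p66 -0.13), and leaving out one or the other egg pair also ended each of these calls. For eIF4G the log2 changes were -1.25 ± 0.19 SE in polysomal share and 0.80 ± 0.18 SE in TE. The TE gain of eIF4G over oocytes is a quantity relative to the library total, whereas the gradient share is relative to the gene's own mRNA.

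**Figure D3:**
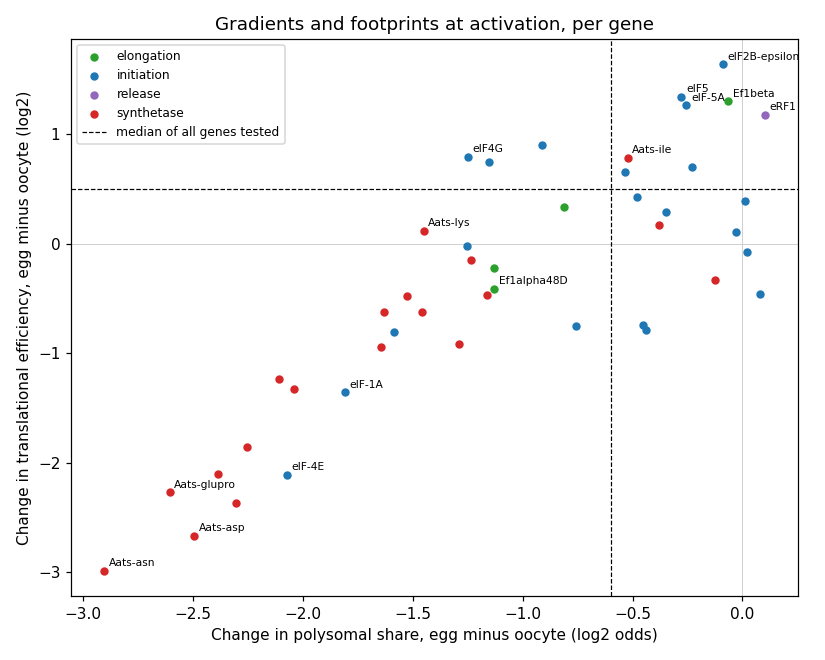
Change from oocytes to eggs in polysomal share (x axis, log2 odds) against change in translational efficiency (y axis, log2), 1 point per member, coloured by class, with dashed lines at the medians of all genes tested (-0.60 and 0.50). Aats-asn lies at -2.90 and -2.98, lowest on both axes, and eIF4G lies left of the vertical line and above the horizontal one.

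Eggs of png mothers were compared with OregonR eggs in the footprint series; both comparisons use the same egg libraries, so their values stand side by side only. In png eggs 13 of 19 synthetases had a higher TE and 4 a lower one by limma, where 32.1% of all transcripts were higher and 38.0% lower, with a median log2 difference of 1.18 against -0.11 over all transcripts. Of 22 initiation factors 8 were higher and 4 lower, of 4 elongation factors 2 were higher, and eRF1 was lower. With libraries scaled to the same median the counts were 15 and 1 for synthetases, 14 and 3 for initiation factors and 3 and 0 for elongation factors, and eRF1 was again lower. That scaling moved the median of all transcripts to 0.41, and of all 5840 transcripts 2730 were higher and 1829 lower.

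Footprints of Aats-asn were at 127 and 140 RPKM in png eggs, between the 21.5 and 28.2 RPKM of OregonR eggs and the 250 and 179 RPKM of oocytes (TE difference from eggs 2.55 ± 0.27 SE, limma adjusted p = 3.08e-05). Footprints of eIF-4E were at 836 and 844 RPKM in png eggs, above the 184 and 182 RPKM of OregonR eggs (2.45 ± 0.17 SE, limma adjusted p = 2.52e-06). The TE of Aats-asp (2.95 ± 0.31 SE), Aats-ala-m (2.66 ± 0.27 SE) and Aats-glupro (2.24 ± 0.26 SE) was higher as well. Footprints of eIF5 were at 129 and 105 RPKM against 335 and 389 RPKM in OregonR eggs (-1.92 ± 0.26 SE, limma adjusted p = 0.000141), and those of eRF1 at 72.1 and 74.9 RPKM against 220 and 197 RPKM (-1.52 ± 0.19 SE). Lower in TE too were eIF2B-epsilon (-2.05 ± 0.27 SE), Aats-met (-1.48 ± 0.30 SE), eIF5B (-1.44 ± 0.26 SE) and Aats-ile (-0.84 ± 0.23 SE). The Aats-ile call was lost with libraries scaled to the same median (-0.29) and when any of the 4 egg or png egg pairs was left out (-0.69 to -0.99). None of these genes had overlapping TE between the 2 kinds of egg.

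**Figure D4:**
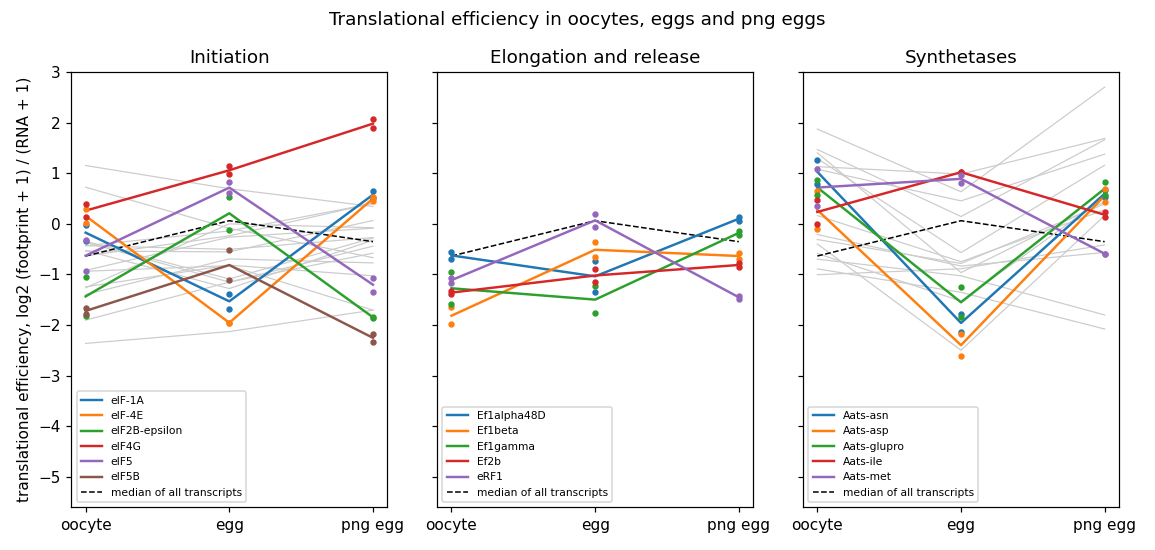
Translational efficiency (y axis, log2 of footprints over RNA, 1 RPKM added to each) in oocytes, eggs and png eggs (x axis) for initiation factors, elongation and release factors, and synthetases. Lines join stage means, points are the states with and without cycloheximide of the coloured genes, grey lines are other members and the dashed line is the mean of the 2 state medians of all transcripts; Aats-asn, Aats-asp, Aats-glupro and eIF-4E dip in eggs, eIF5 and eRF1 peak there.

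RNA of png eggs was compared with that of OregonR eggs by limma. Of 46 members 11 had an unadjusted limma p of at most 0.05, near the share of all transcripts (1358 of 5840). After adjustment 1 member was higher in png eggs and 0 were lower (background 4.32% and 1.83%). It was the mitochondrial serine synthetase mRNA Aats-ser, with 50.7 and 47.0 RPKM in png eggs against 28.1 and 29.6 RPKM (log2 0.74 ± 0.15 SE, limma adjusted p = 0.0288). The groups did not overlap, but the call was lost with libraries scaled to the same median (0.63, adjusted p by limma 0.0574) and when any of the 4 egg or png egg library pairs was left out (0.67 to 0.81). Its footprints were level, at 10.7 and 10.9 RPKM against 11.3 and 10.1 RPKM.

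Other genes of the translation machinery were counted from a list of 33 symbols, 25 of them in the tables. Of 24 tested by limma 16 were lower and 2 higher in polysomal share in eggs, where 51.0% and 18.2% of all genes were. Of 23 tested in TE 9 were higher and 6 lower, near the 46.0% and 24.7% of all transcripts. The poly(A)-binding protein mRNA pAbp had a polysomal share of 31.5% and 32.3% in oocytes and fell to 7.6% and 4.6% in eggs (log2 odds -2.82 ± 0.27 SE, limma adjusted p = 0.000221). The mRNA of Elf, the fly eRF3 that partners eRF1, fell from 27.2% and 32.9% to 11.0% and 11.99% (log2 odds -1.70 ± 0.20 SE), unlike eRF1. In the inputs 1 of 25 changed by limma, Thor, the repressor that binds eIF-4E, which went from 65.2 and 89.8 RPKM to 6.1 and 18.0 RPKM (log2 -2.74 ± 0.42 SE, limma adjusted p = 0.00217). In the RNA libraries of the footprint series Thor was not called (log2 -1.25 ± 0.25 SE, limma adjusted p = 0.0963).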

How the data were processed

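Members and gene lists were chosen with earlier results of these data known. Inputs and the footprint table held RPKM values deposited by the authors, per the file headers. Fraction tables held RPKM normalized by the authors between fractions and the fraction of the gene's sum, deposited as a number from 0 to 1. The labels name a spike-in of 5 ng yeast mRNA per fraction, and 5 ng luciferase for egg and puromycin gradients alone; how they entered the normalization is not given in the sources used. FastQC, TopHat 1.3.2, HTSeq, Bowtie and dm3 are named in the submitters' processing notes without roles. No gene in a gradient table had less than 4 in its heavy fraction, so mRNAs absent from heavy polysomes are missing. All 54 members matched a gene record by name.

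From these files shares were recomputed from the normalized RPKM values, and log2 odds used 1 added to each side, over 5088 genes in all 6 gradients. Inputs and footprints used log2(RPKM + 1) at a mean of at least 1 RPKM. Tests were two-sided in limma 3.58.1 (lmFit, eBayes with trend; R 4.3.3), with Benjamini-Hochberg adjustment over all genes and a threshold of 0.05; "rose", "fell", "higher" and "lower" of a count mean past it. All adjusted p-values are limma's. One model covered the 6 gradients, 1 the 4 inputs without puromycin and 1 the 12 footprint-series libraries with a cycloheximide term per assay. Depth is unknown, so no counting interval was computed. The procedure was tested on simulated data with 200 changed genes. Genes given in full were those of a written list of factors, the 3 largest polysomal changes per class, the 3 largest puromycin changes, up to 5 per direction of those passing in RNA or TE, and the 3 most abundant; others are named as said in the text. Tables were summarised with python 3.11.15, pandas 2.3.3, numpy 2.4.6 and matplotlib 3.10.9.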

Additional observations from a re-analysis of the deposited data

Results flagged for a closer look

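The effect of puromycin on polysomal share differed between eggs and oocytes for 17 of 46 members, by limma's interaction contrast over the 6 gradients (adjusted p at most 0.05); over all genes 5.84% were higher and 49.9% lower. Values are the effect in eggs minus that in oocytes in log2 odds, each from 1 treated gradient per stage. It was higher for 4 synthetases, Aats-glupro (1.64), Aats-asn (1.61), Aats-arg (0.99) and Aats-asp (0.95), whose untreated egg shares were low. It was lower for Aats-phe (-1.81) and Aats-met (-0.99), for the helper and helicase eIF-4B (-1.77) and eIF-4a (-1.09), for eIF-2beta (-1.63) and 3 subunits of its exchange factor, eIF2B-beta (-1.55), eIF2B-gamma (-1.42) and eIF2B-alpha (-1.17). It was also lower for eRF1 (-1.68), eIF5 (-1.51), eIF6 (-1.42), eIF-3p40 (-1.31) and eIF-5A (-1.05). The median over all genes was -0.99, and with gradients centred on their median 18 members were higher and 0 lower. Of all 5088 genes 1368 were higher and 934 lower with that centring.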

How the results depend on the processing

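Counts are members higher and lower by limma. With all fractions brought to equal totals they were 4 and 21 for polysomal share, 16 and 1 for RNP share, 9 and 5 for puromycin in oocytes, 19 and 5 in eggs, and 9 and 2 for the difference between them. Over all 5088 genes these were, in order, 1431 and 1919, 1215 and 96, 1806 and 717, 1596 and 1592, and 610 and 1442. With gradients centred on their median polysomal rises were 3, RNP calls 7 and 4, falls with puromycin in oocytes 11, calls in eggs 23 and 4, and the difference 18 and 0. Over all 5088 genes these were, in order, 1594, 522 and 697, 1028, 1755 and 1539, and 1368 and 934. With low polysomes included puromycin falls in oocytes were 12, calls in eggs 8 and 13, and the difference 10 and 2. The counts over all 5088 genes were, in order, 1613, 833 and 2478, and 840 and 1449. With heavy polysomes alone falls in oocytes were 14 and rises of the difference 0, against 846 and 29 over all 5088 genes. With libraries scaled to the same median TE calls were 1 and 30 in eggs against oocytes, TE falls 5 in png eggs, and RNA calls 0 and 5 in png eggs. Over all 5840 transcripts these were, in order, 1909 and 2518, 1829, and 403 and 441. RNA falls in png eggs were 1 with a pseudocount of 5, where 161 of all 5840 transcripts fell. With only the groups compared RNA calls in png eggs were 3 and 12, against 1077 and 673 of all 5831 transcripts. Ef1beta (0.72) and eIF6 (-1.10) turned sign in polysomal share, by fraction scaling and by counting low polysomes; the cause was not tested.

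Leaving out 1 library or pair at a time gave polysomal falls of 27 to 33 and rises of 0 to 0, RNP rises of 19 to 42, puromycin falls of 20 to 34 in oocytes and 39 to 41 in eggs, and for the difference 2 to 9 higher and 8 to 19 lower. Input calls were 0 to 1 higher and 0 to 7 lower. TE calls were 6 to 13 higher and 10 to 22 lower in eggs, and 14 to 26 higher and 5 to 10 lower in png eggs. RNA calls in png eggs reached 3 higher and 12 lower without an oocyte pair. There 1080 or 1084 of all 5840 transcripts were higher and 669 or 672 lower. Fits that left 1 library or pair in a compared group changed the counts over all genes too. The ranges of this paragraph thus do not single out members. Rises of the difference were 2 without either oocyte replicate and 9 without egg replicate 1, and its falls 8 without oocyte replicate 2. TE rises in eggs were 6 without either egg pair, and TE falls 10 without the egg pair with cycloheximide. In png eggs TE rises were 14 and 15 without the egg and the png egg pair with cycloheximide, and TE falls 5 without either pair lacking it.

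Replicate numbers are shared by stages, but same-numbered gradients did not deviate together for polysomal share (r = -0.03) or inputs (-0.03), and did for RNP share (0.33), over 2 pairs. With the replicate number as a block 28 members were lower and 0 higher in polysomal share, 44 higher in RNP share, and 0 called in inputs. Of all 5088 genes 2535 were then lower and 891 higher in polysomal share, and 4397 higher in RNP share. In the inputs 97 of all 6622 genes were higher and 273 lower. Adding both puromycin inputs, or that of oocytes alone, a choice made after seeing the data, left 0 members called. With both added 0 of all 6609 genes were higher or lower, so that fit says nothing about members. With that of oocytes alone 70 of all 6619 genes were higher and 216 lower. For genes named by the rule 589 of 621 values stayed on their side of the threshold, 19 lost a call, 11 gained one and 2 reversed.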
